A study of Homo sapiens with 32 samples.

Results

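The earliest time after a growth factor was added was examined in LNCaP, a prostate cancer cell line that came from a lymph node metastasis and that expresses the androgen receptor. The 12 libraries compared were chosen by their labels. They were the 8 labelled 5 minutes, of which 4 had received EGF at 100 ng/mL and 4 NRG-1 at 100 ng/mL, and the 4 grown in CSS with no growth factor, out of 32 RNA-Seq libraries in the series. All 12 came from cells kept in CSS, fetal bovine serum treated with charcoal and dextran, since the day before, so the ligand was the only labelled difference between the groups. Whether the control wells received a mock addition is not given in the sources used here. Each group had 2 replicates in each of 2 batches, and the labels call them biological replicates. The cells are 1 cell line, so the spread between libraries is that between cultures of this line. The comparison asks which mRNAs had already moved 5 minutes after the ligand and which were stable.

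EGF binds EGFR and NRG-1 binds HER3 or HER4 (*ERBB3* and *ERBB4*), and each of these receptors can form a dimer with HER2 (*ERBB2*). The dimers pass the signal through RAS, RAF and MEK to ERK, and through PI3K to AKT. ERK acts on proteins already present in the cell, among them the ternary complex factors that sit with SRF on promoters. The genes that answer first, the immediate early genes, therefore need no new protein to be transcribed, and many of their mRNAs are short-lived.

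At 5 minutes, *EGR1* was the 1 differentially expressed gene (DEG) among 16995 genes tested (0.00588%). The call came from edgeR's quasi-likelihood test with batch as a term, and asked for 0.05 on the adjusted P value and for a log2 fold change (log2FC) of more than 1 up or down. At an unadjusted P value below 0.05 there were 367 genes (2.16%), of which 154 were higher (0.906%) and 213 lower (1.25%) with ligand. Conversely, 13533 genes (79.6%) were shown to be stable. A gene was called stable when 2 one-sided tests in limma, each at an adjusted P value below 0.05, placed its log2FC inside ±0.5, a 1.41-fold change in either direction. Among the 12673 genes that averaged at least 1 CPM, a count scaled to the size of its library, over the 12 libraries, 12509 (98.7%) were stable.

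The libraries held 66903121 to 92401724 counts each, with medians of 80532318 in CSS, 76443915 with EGF and 78604304 with NRG-1. The LNCaP identity markers were present, with 10 of 10 at 1 TPM or more and a summed level of 3970 to 4290 TPM in CSS, 3820 to 4280 TPM in the EGF libraries, and 3940 to 4310 TPM in those of NRG-1. Of 4 basal markers and 3 markers of prostate lines without the androgen receptor, 0 reached 1 TPM. Of the stromal markers *COL1A1* and *VIM* reached it, of the leukocyte markers *CD68*, of the endothelial markers *VWF*, and of the neuroendocrine markers *SYP* and *ENO2*, at summed levels whose ranges overlapped between the groups. The batches differed more than the treatments did. The median absolute difference per gene was 0.15 on the log2 scale between the batches. Between ligand and CSS it was 0.05 in batch 1 and 0.04 in batch 2. Between the replicate CSS libraries of batches 1 and 2 it was 0.08 and 0.12. The CSS replicates are single libraries, whereas the other differences are between means of several libraries, which vary less. The values for replicates and for ligand are therefore not on the same scale. With batch removed, the EGF and NRG-1 libraries of batch 2 replicate 2 lay farthest to one side of the first principal component (-33.2 and -21.2) and those of batch 2 replicate 1 farthest to the other (24.2 and 26.2). These EGF and NRG-1 libraries of batch 2 replicate 2 held 191 and 179 CPM of *MALAT1*, a nuclear-retained RNA, where the other 10 libraries held 250 to 477 CPM, and the part this played in any result was not tested. When the CSS, EGF and NRG-1 libraries of batch 2 replicate 2 were left out together, *EGR1* was again the 1 DEG (log2FC 2.27 ± 0.36, SE; edgeR adjusted P = 0.0226) and 13061 of 16950 genes were stable.

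**Figure D1:**
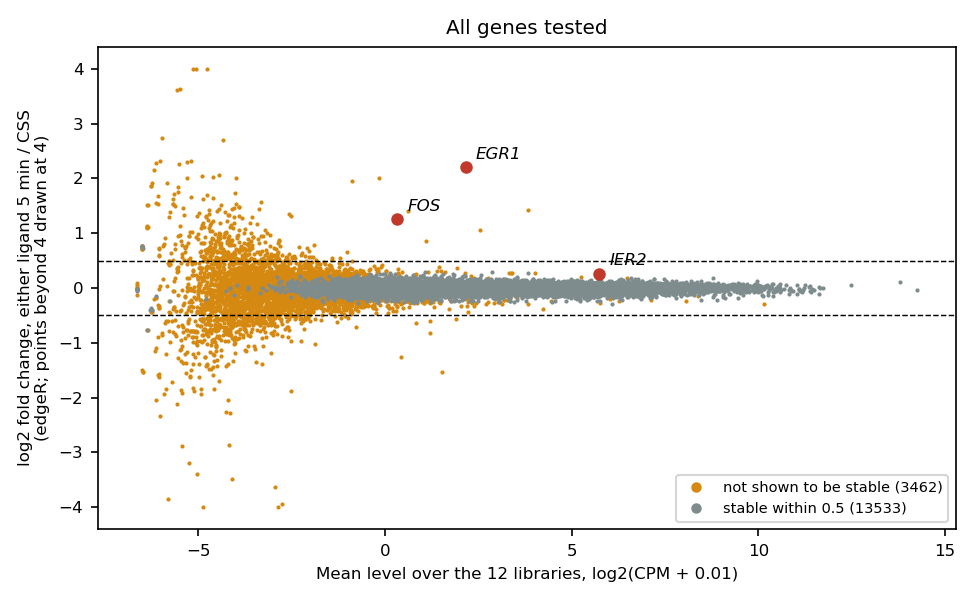
Each point is 1 of 16995 genes, with its mean level over the 12 libraries on the x axis (log2 of CPM plus 0.01) and its edgeR log2FC between the 8 ligand libraries at 5 minutes and the 4 CSS libraries on the y axis. Dashed lines mark ±0.5; the 13533 stable genes (grey) lie close to 0 at high levels, the genes not shown to be stable (orange) are mostly at low levels, and red points mark *EGR1* (2.21), *FOS* (1.26) and *IER2*, with a few orange points of similar level also above the upper line.

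*EGR1* encodes a zinc finger transcription factor whose gene is a textbook target of ERK signaling. The promoter sequences of *EGR1*, *FOS* and *IER2* are shown because these were the immediate early genes with the smallest P values at 5 minutes. Each holds the 250 bases before and the first 50 bases after the RefSeq transcription start on GRCh38.p14, on the gene's own plus strand. These are EGR1 at chr5:138465229-138465528, FOS at chr14:75278578-75278877, and IER2 at chr19:13150161-13150460. Capitals mark the CArG box, the core of the serum response element that SRF binds, in which a run of A and T stands between CC and GG.

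EGR1: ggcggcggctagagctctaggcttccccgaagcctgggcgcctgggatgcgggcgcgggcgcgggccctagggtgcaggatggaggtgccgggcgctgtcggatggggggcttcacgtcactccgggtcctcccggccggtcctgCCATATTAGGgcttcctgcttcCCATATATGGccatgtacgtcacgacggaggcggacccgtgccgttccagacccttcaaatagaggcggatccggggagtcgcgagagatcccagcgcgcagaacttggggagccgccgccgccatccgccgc
FOS: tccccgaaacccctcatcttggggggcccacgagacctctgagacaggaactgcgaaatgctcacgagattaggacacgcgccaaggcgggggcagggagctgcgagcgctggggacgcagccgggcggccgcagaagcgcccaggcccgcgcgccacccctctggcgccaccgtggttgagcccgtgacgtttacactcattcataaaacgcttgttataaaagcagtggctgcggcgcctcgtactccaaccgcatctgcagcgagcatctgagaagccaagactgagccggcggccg
IER2: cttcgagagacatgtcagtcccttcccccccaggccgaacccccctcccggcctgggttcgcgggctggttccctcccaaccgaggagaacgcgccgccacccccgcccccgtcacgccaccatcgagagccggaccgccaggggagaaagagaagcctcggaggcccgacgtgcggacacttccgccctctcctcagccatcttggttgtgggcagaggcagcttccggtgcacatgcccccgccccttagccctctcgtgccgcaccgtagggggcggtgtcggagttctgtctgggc

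The *EGR1* window held 2 CArG boxes, at -105 to -96 and at -83 to -74 from the transcription start. The *FOS* and *IER2* windows held 0 matches to these letters. Of the 33 immediate early genes with a promoter sequence, *SRF* also held 2, at -30 to -21 and at -10 to -1, and its mRNA was stable at 5 minutes. On both strands, a CArG box was found in 351 of 27305 promoters of this length (1.29%). The ETS core GGAAG, the letters that ternary complex factors recognize, occurred 3 times in the *EGR1* window, 3 times in the *IER2* window and 0 times in that of *FOS*, and was present in 71.9% of all promoters. The TATA box TATAAA was found in the *FOS* window and in 12.0% of all promoters. The cAMP response element TGACGTCA was in none of the 3 windows and in 1.98% of all promoters. These are matches of letters in this window only. Sites more than 250 bases before the start were not searched, so 0 matches do not show that a gene lacks a serum response element.

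*EGR1* rose in every ligand library. Its levels are given in the order batch 1 replicate 1, batch 1 replicate 2, batch 2 replicate 1, batch 2 replicate 2. In CSS they were 1.16, 1.37, 1.21, and 1.29 CPM. With EGF they were 6.71, 4.14, 17.4, and 2.7 CPM. With NRG-1 they were 4.24, 2.30, 5.08, and 5.93 CPM. All 8 ligand libraries lay above all 4 CSS libraries, whose levels were close together, whereas those of the EGF libraries were widely spread, with batch 2 replicate 1 the highest and batch 2 replicate 2 the lowest. Among all genes, 16 had all 8 ligand libraries above all 4 CSS libraries (0.0941% of the genes tested), and 14 had them all below (0.0824%). The mean was 1.26 ± 0.0942 CPM in CSS (SD, n = 4) and 6.06 ± 4.82 CPM with either ligand (SD, n = 8), which edgeR estimated as a log2FC of 2.21 ± 0.36 (SE, adjusted P = 0.0221).

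For *EGR1* the log2FC was 1.73 in batch 1 alone (adjusted P = 0.0404 in edgeR) and 2.56 in batch 2 alone (SE 0.57, adjusted P = 1). Its direction held under each of the 28 alternatives run, with log2FCs of 1.24 to 2.56, but its adjusted P value was below 0.05 in 17 of them (range 6.7e-08 to 1). The call was lost when any of the 4 CSS libraries was left out (adjusted P = 0.144 to 0.26 in edgeR), without NRG-1 batch 2 replicate 1 (0.0531) or replicate 2 (0.0593), and when the fit held only the 12 libraries (adjusted P = 1). Without its highest library, EGF batch 2 replicate 1, the log2FC was 1.81 and the adjusted P value 0.000575 in edgeR.

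With each ligand on its own against the same 4 CSS libraries, the log2FC of *EGR1* was 2.62 ± 0.39 for EGF (SE; edgeR adjusted P = 0.00463). For NRG-1 it was 1.80 ± 0.40 (SE; edgeR adjusted P = 0.809, unadjusted P = 9.52e-05). The means were 7.74 ± 6.65 CPM with EGF and 4.39 ± 1.55 CPM with NRG-1 (SD, n = 4 each). When EGF was tested against NRG-1 directly, the difference for *EGR1* was 0.81 on the log2 scale (SE 0.34, unadjusted P = 0.0239, adjusted P = 1 in edgeR). The 95% interval of this difference in limma was -0.14 to 1.21, so that the 2 ligands can be called neither different nor alike for this gene. No gene was a DEG with NRG-1 in edgeR, where 324 of the 16995 genes tested reached an unadjusted P value below 0.05. DESeq2 called 1 gene with NRG-1 (*EGR1*). With EGF, 1 gene was a DEG in edgeR and 251 of the 16995 genes had an unadjusted P value below 0.05. No gene differed between the ligands with edgeR or DESeq2, and 184 (1.08%) reached an unadjusted P value below 0.05 in edgeR.

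*FOS*, a subunit of the AP-1 transcription factor, had the next largest estimate among the immediate early genes with more than a few counts. In CSS its levels were 0.665, 0.587, 0.531, and 0.692 CPM. With EGF they were 1.52, 1.04, 3.83, and 1.17 CPM. With NRG-1 they were 1.10, 0.740, 1.33, and 1.60 CPM. These groups did not overlap either, and EGF batch 2 replicate 1 was again the highest library. Its log2FC was 1.26 (SE 0.36, unadjusted P = 0.00145), but the adjusted P value was 1 in edgeR and ran from 0.145 to 1 over the alternatives. The estimate was 0.77 in batch 1 alone, 1.64 in batch 2 alone, and 0.56 with limma on log2(TPM + 1). The counts behind *FOS* were 41 to 57 per CSS library and 58 to 297 per ligand library. Its 95% interval in limma, 0.60 to 1.64, lay above the margin of stability. DESeq2 called *FOS* in the comparison of EGF alone with CSS, as the second of 2 DEGs with *EGR1*.

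*IER2*, which encodes a small nuclear protein, was already abundant without ligand. In CSS its levels were 49.6, 50.1, 46.1, and 41.8 CPM. With EGF they were 65.1, 56.5, 67.3, and 44.0 CPM. With NRG-1 they were 56.9, 52.8, 54.2, and 50.6 CPM. Of the 8 ligand libraries all but EGF batch 2 replicate 2 lay above the 4 CSS libraries. In edgeR the estimate was 0.26 (SE 0.08, unadjusted P = 0.00459, adjusted P = 1 in edgeR). With a 95% interval of 0.08 to 0.41, *IER2* met the criterion of stability although its interval did not include 0, which shows what the criterion allows.

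*JUNB*, another AP-1 subunit, stood at 23.3, 21.6, 37.8, and 34.6 CPM in CSS. Its levels were 27.4, 25.2, 45.9, and 38.0 CPM with EGF and 26.3, 23.1, 39.7, and 39.5 CPM with NRG-1. The batches differed more than the groups did, and within each batch the ligand libraries were at or above the upper end of the CSS libraries except NRG-1 batch 1 replicate 2, which fell between them. *JUNB* had a log2FC of 0.17 (SE 0.11, unadjusted P = 0.117, adjusted P = 1 in edgeR), and met the criterion of stability (95% interval -0.04 to 0.39).

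**Figure D2:**
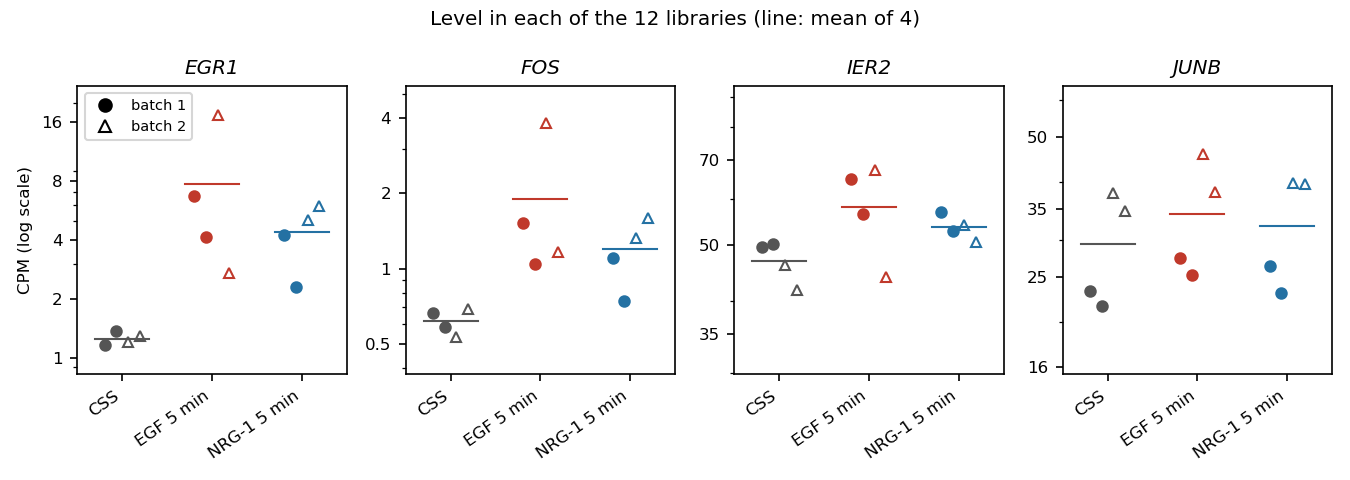
CPM on a log scale (y axis) of 4 immediate early genes in each of the 12 libraries, by group (x axis), with filled circles for batch 1, open triangles for batch 2, and a line at the mean of the 4 libraries. For *EGR1* and *FOS* each ligand library lies above each CSS library, for *IER2* 1 EGF library of batch 2 (44.0 CPM) lies within the CSS range, and for *JUNB* the batches lie farther apart than the groups.

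The 8 ligand libraries differed among themselves in how much *EGR1* they held, and *FOS* was compared with it across them. Both were highest in EGF batch 2 replicate 1 (17.4 and 3.83 CPM), and NRG-1 batch 1 replicate 2 was the lowest of both (2.30 and 0.740 CPM). Over the 8 libraries Pearson's r of the log2 CPM was 0.95 (exact permutation P = 0.000843, adjusted P = 0.0304 over 36 relations of *EGR1* with immediate early genes). Spearman's rho was 0.90 (exact permutation P = 0.00456, adjusted P = 0.164). Without the 2 libraries farthest from the median of *EGR1*, which were those named above, r was 0.73. Each batch held 4 of these libraries, too few for a value of its own. The points share their ligands, batches and the scaling of each library, and *FOS* was singled out after its values were seen. *IER2* had r = 0.75 (exact permutation P = 0.0324, adjusted P = 0.422) and rho = 0.64 (exact permutation P = 0.0962, adjusted P = 0.432), and the other 34 relations had adjusted P values of 0.422 or more by either measure.

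**Figure D3:**
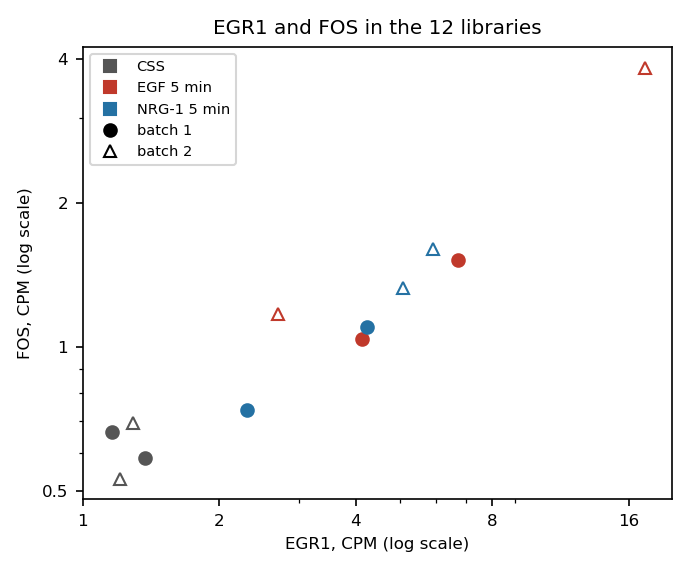
*EGR1* (x axis) and *FOS* (y axis) in the 12 libraries, both as CPM on log scales, coloured by group, with filled circles for batch 1 and open triangles for batch 2. The 4 CSS libraries lie together at the lower left, and EGF batch 2 replicate 1 (17.4 and 3.83 CPM) is at the upper right.

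The immediate early genes were examined as 2 lists of 22, one of transcription factors and one of other products, and all 44 were tested. At 5 minutes, 1 of 44 passed the adjusted threshold (*EGR1*, beside 0.00588% of all genes) and 4 reached an unadjusted P value below 0.05 (*EGR1*, *FOS*, *IER2* and *JUND*, beside 2.16% of all genes), each of them higher. Estimates were above 0 for 35 genes (79.5%, beside 51.3% of all genes tested) and below 0 for 8, with a median of 0.08 beside 0.01 for all genes. In 4 genes (*EGR1*, *FOS*, *MYC* and *CYR61*) all ligand libraries lay above the CSS libraries within both batches, which held for 82 of all genes (0.482%). In 0 of the 44 they lay below in both batches, which held for 64 of all genes (0.377%). Stability was shown for 36 of the 44, beside 79.6% of all genes tested and 98.7% of those at 1 CPM or more. Of the members not shown to be stable, *EGR1* and *FOS* averaged at least 1 CPM. From 5 minutes to 1 hour of ligand, 38 of the 44 rose, 3 fell and 3 did not pass the threshold (adjusted P value below 0.05 in edgeR, beside 7.2% of all genes higher and 5.92% lower), with a median log2FC of 1.93. The 1006 lower genes among all became 1601 with the replicate number as a block and 597 without a batch term. The 5-minute libraries enter both of these comparisons.

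Among the transcription factors, the other EGR genes were barely detected at 5 minutes. *EGR2* had at most 4 counts in any of the 12 libraries and *EGR4* at most 2, so no fold is given for them. *EGR3* had 4 to 17 counts per library, with 0.126 ± 0.0580 CPM in CSS (SD, n = 4) and 0.136 ± 0.0509 CPM with ligand (SD, n = 8). It met the criterion of stability, but the prior count of 2 added in limma draws folds toward 0 where counts are so few. At 1 hour, *EGR3* averaged 502 CPM with EGF and 217 CPM with NRG-1, and *EGR1* averaged 1320 and 1350 CPM. For *EGR1* the log2FC from 5 minutes to 1 hour was 7.84 (adjusted P = 8.1e-19 in edgeR).

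Of the other AP-1 genes, *FOSB* was 0.736 ± 0.269 CPM in CSS (SD, n = 4) and 0.728 ± 0.113 CPM with ligand (SD, n = 8), and its 95% interval of -0.40 to 0.45 met the criterion of stability. *JUN* was 115 ± 29.7 and 123 ± 26.3 CPM in the same groups (95% interval -0.07 to 0.27). *JUND* was 112 ± 10.4 and 120 ± 12.0 CPM (log2FC 0.10, SE 0.05, unadjusted P = 0.0444, adjusted P = 1 in edgeR). *FOSL1* had 0 to 9 counts per library and was not shown to be stable (95% interval -1.08 to -0.02). *ATF3*, a stress-responsive relative of the AP-1 factors, was stable at 55.0 ± 3.62 and 56.0 ± 7.01 CPM.

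*MYC*, the growth-promoting transcription factor, was 254, 264, 256, and 256 CPM in CSS. It was 297, 274, 276, and 265 CPM with EGF and 277, 277, 259, and 266 CPM with NRG-1. Within each batch all ligand libraries lay above the CSS libraries, by a small amount. Its log2FC was 0.09 (SE 0.05, unadjusted P = 0.0626, adjusted P = 1 in edgeR), and *MYC* was stable within a 95% interval of 0.00 to 0.18.

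The estimates of the other members are given for 5 minutes and for 1 hour side by side. *NR4A1*, an orphan nuclear receptor, was 8.62 ± 0.312 CPM in CSS (SD, n = 4) and 9.09 ± 0.554 CPM at 5 minutes (SD, n = 8; 95% interval -0.10 to 0.25), and rose from there by 5.23 on the log2 scale by 1 hour (adjusted P = 4.43e-28 in edgeR). *KLF10*, a Krüppel-like repressor, was 37.2 ± 1.3 and 37.2 ± 2.41 CPM (95% interval -0.15 to 0.15), with a log2FC of 3.14 by 1 hour (adjusted P = 3.11e-25 in edgeR). *SRF* itself was 55.7 ± 2.88 and 57.3 ± 6.62 CPM (95% interval -0.12 to 0.19), with 1.84 by 1 hour (adjusted P = 2.36e-19 in edgeR). The mRNA-destabilizing factor *ZFP36*, the matricellular gene *CYR61*, and the pseudokinase *TRIB1* had 5-minute intervals of -0.06 to 0.31, -0.07 to 0.37, and -0.05 to 0.20. *NFKBIA*, the inhibitor of NF-κB, and *BTG2*, an antiproliferative factor, were stable at 5 minutes (-0.24 to 0.09 and -0.08 to 0.17) and then, by 1 hour, fell by 1.11 and 0.67 in log2 units (edgeR adjusted P = 5.08e-14 and 1.13e-11).

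Besides *EGR1* and *FOS*, the 6 members of these lists not shown to be stable were *EGR2*, *EGR4*, *FOSL1*, *NR4A3*, *CTGF* and *ARC*, all with few counts. *CTGF* had at most 4 counts in any library, *ARC* 3 to 28, and *NR4A3* 6 to 19. Of the 6, 0 reached an unadjusted P value below 0.05 in edgeR, although the limma interval of *FOSL1* lay below 0.

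**Figure D4:**
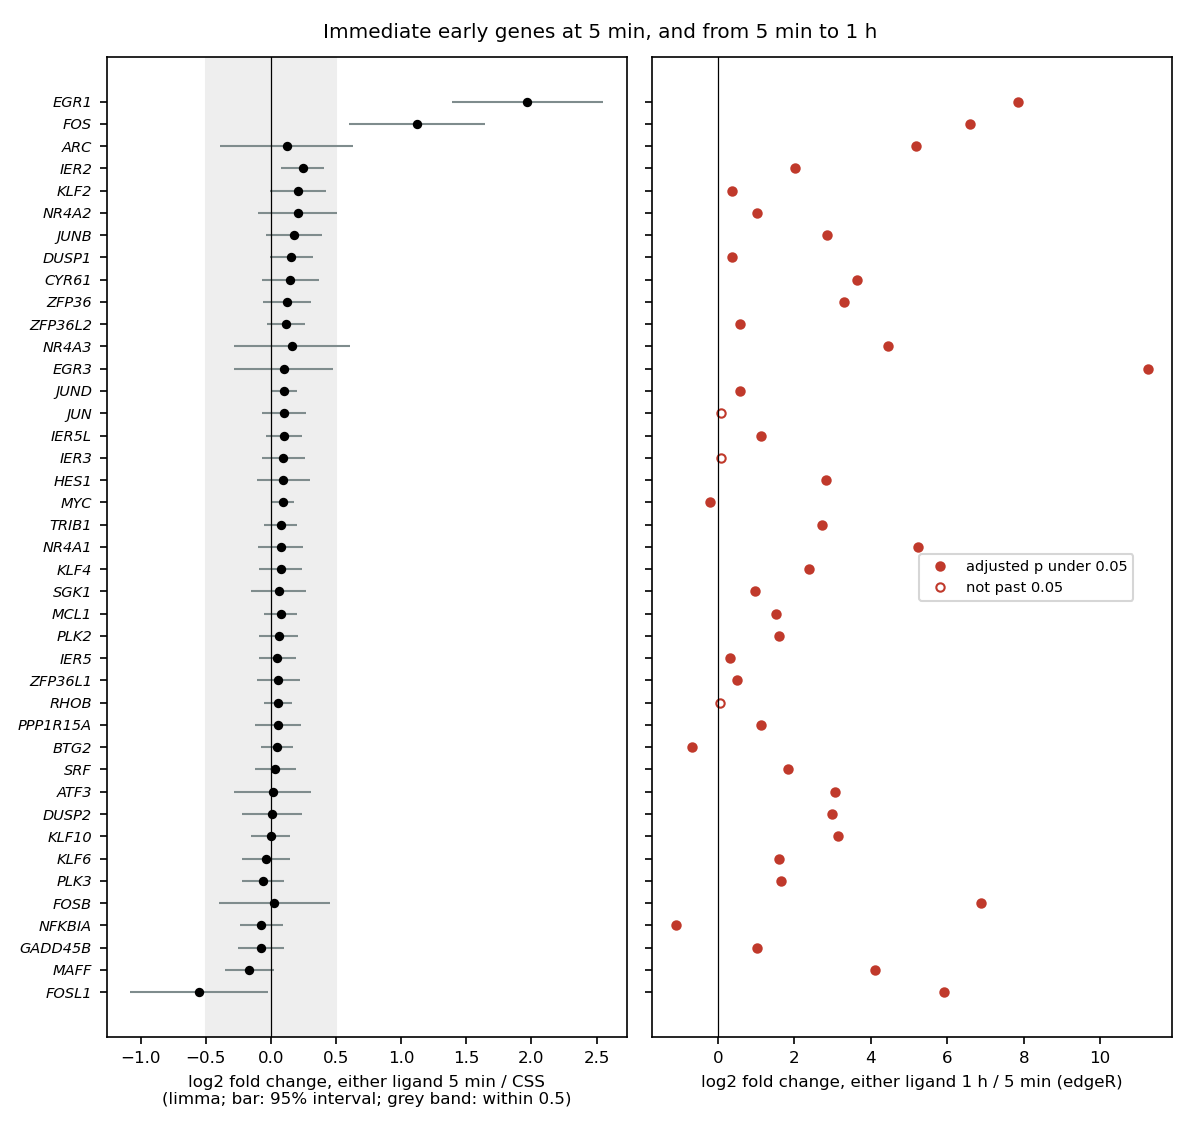
Left, log2FC between either ligand at 5 minutes and CSS for the immediate early genes with more than 4 counts in at least 1 library (limma; points are estimates, bars 95% intervals, the grey band ±0.5). Right, log2FC of the same genes from 5 minutes to 1 hour (edgeR; filled points have an adjusted P value below 0.05); at 5 minutes the intervals of *EGR1* (1.39 to 2.55) and *FOS* (0.60 to 1.64) lie outside the band, whereas by 1 hour values reach 11.26 (*EGR3*).

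Of the receptors, *ERBB2*, *EGFR* and *ERBB3* were stable at the mRNA level. *ERBB2* was 276, 287, 249, and 219 CPM in CSS. It was 303, 271, 270, and 206 CPM with EGF and 297, 284, 268, and 209 CPM with NRG-1. The groups overlapped, and in batch 2 the replicate 2 library was the lowest of each group. *ERBB2* had a log2FC of 0.03 (SE 0.09, 95% interval -0.15 to 0.20). *EGFR* was 30.4 ± 5.46 CPM in CSS (SD, n = 4) and 31.3 ± 6.78 CPM with ligand (SD, n = 8; 95% interval -0.25 to 0.29), and *ERBB3* was 218 ± 18.1 and 218 ± 25.0 CPM (95% interval -0.18 to 0.17). *ERBB4* had 4 to 16 counts per library. Its estimate was -0.71 (SE 0.37, unadjusted P = 0.0668, adjusted P = 1 in edgeR), and with an interval of -1.2 to 0.15 it was the 1 of 14 receptor and adaptor genes not shown to be stable.

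The kinases and scaffolds that carry the signal were as stable, as were most genes. Of all genes tested 79.6% were stable, and of those at 1 CPM or more 98.7%. In the RAS to ERK cascade 15 of 16 genes were stable, with intervals between -0.17 and 0.26, and the exception was the scaffold *KSR1* at 18 to 51 counts. *MAPK3*, which encodes an ERK kinase, had an interval of -0.12 to 0.06. In the PI3K to AKT list 17 of 18 were stable. All 8 genes for SRF, its cofactors, the ternary complex factors and CREB-related factors were stable, with *ELK1*, a ternary complex factor, at 55.1 ± 2.18 CPM in CSS and 57.1 ± 2.43 CPM with ligand (95% interval -0.04 to 0.14). In these lists and that of receptors and adaptors, 0 members reached an unadjusted P value below 0.05 (beside 2.16% of all genes), and the median estimate was 0.02 to 0.04 beside 0.01 for all genes.

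Feedback genes, whose products restrain ERK, had mostly stable mRNAs at 5 minutes. Of 17 tested ERK output and feedback genes, 0 reached an unadjusted P value below 0.05 in edgeR and 16 were stable. The stable share was 79.6% among all genes tested and 98.7% among those at 1 CPM or more. *DUSP6*, the phosphatase of ERK, was 0.717 ± 0.101 CPM in CSS (SD, n = 4) and 0.739 ± 0.132 CPM with ligand (SD, n = 8; 95% interval -0.25 to 0.31). *SPRY2*, a Sprouty inhibitor, was 1.43 ± 0.0868 and 1.36 ± 0.0753 CPM (95% interval -0.25 to 0.10), and *ERRFI1*, an inhibitor of EGFR, was 34.8 ± 1.64 and 35.6 ± 1.41 CPM (95% interval -0.10 to 0.16). From 5 minutes to 1 hour these 3 rose by 4.22, 3.60 and 2.03 in log2 units (edgeR adjusted P = 1.49e-23, 1.7e-25 and 3.05e-22). *SPRY1*, the member of this list with the smallest P value at 5 minutes (log2FC 0.16, unadjusted P = 0.134), fell by 1.06 from 5 minutes to 1 hour (adjusted P = 1.12e-10 in edgeR). Of 8 ERBB ligand genes tested out of 11, 6 were stable, among them *HBEGF* at 5.90 ± 0.695 and 6.31 ± 0.671 CPM (95% interval -0.04 to 0.24).

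**Figure D5:**
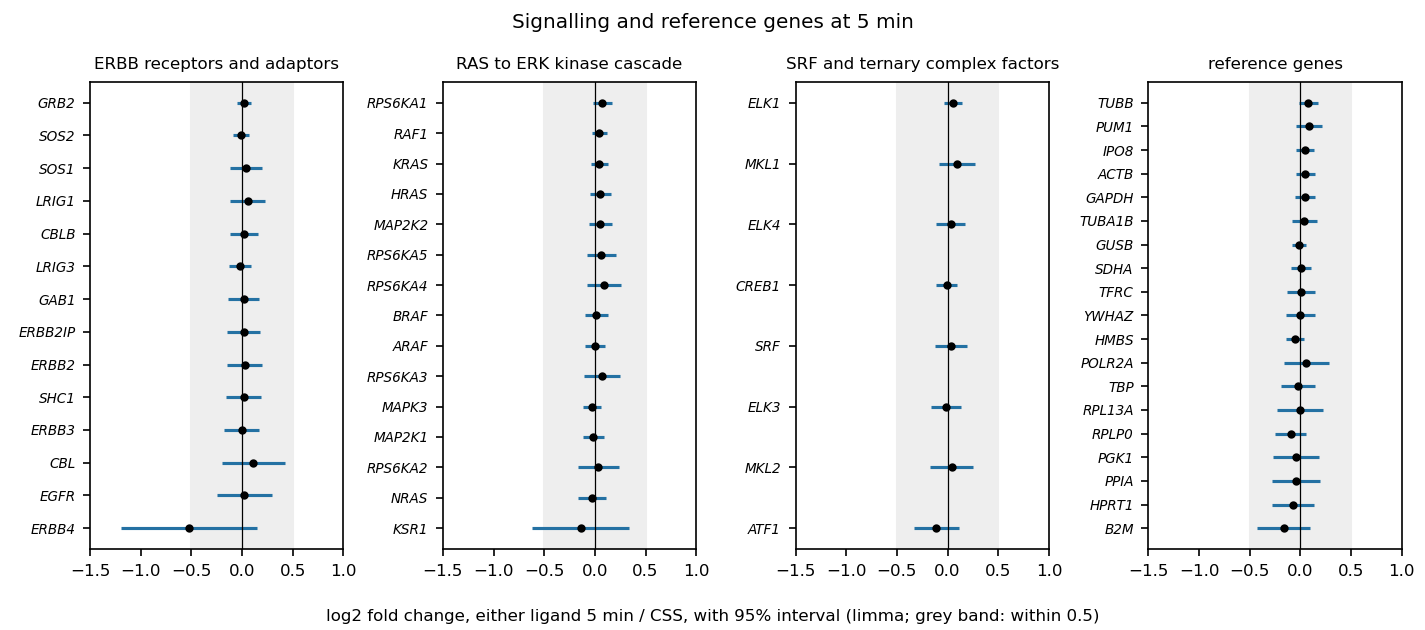
Log2 fold change between either ligand at 5 minutes and CSS (x axis; limma estimate and 95% interval, grey band ±0.5) for genes of 4 lists. Of the intervals drawn, those of *ERBB4* (-1.2 to 0.15) and *KSR1* (-0.62 to 0.34) leave the band, and that of *B2M* (-0.43 to 0.10) is the widest among the reference genes.

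Reference genes are used to scale other measurements, and 20 of 20 were stable at 5 minutes. So were 98.7% of all genes at 1 CPM or more. The narrowest interval was that of *GUSB*, a lysosomal glucuronidase, at -0.08 to 0.06, with 59.9 ± 1.2 CPM in CSS (SD, n = 4) and 59.7 ± 3.15 CPM with ligand (SD, n = 8). *ACTB* (β-actin) had an interval of -0.04 to 0.14 and *GAPDH* one of -0.05 to 0.14. *B2M*, the light chain of MHC class I, had the widest, and its levels were 206 to 336 CPM with EGF and 210 to 271 CPM with NRG-1, each with batch 2 replicate 2 the highest. From 5 minutes to 1 hour, *ACTB* rose by 0.88 on the log2 scale (adjusted P = 3.59e-19 in edgeR). *ACTB* was therefore stable from CSS to 5 minutes but higher in the 1-hour libraries. Of all stable genes, the most abundant by CPM were *EEF1A1*, *RNA45S5* and *EEF2*, with log2FCs of -0.04, 0.11 and 0.05 (SE 0.12, 0.20 and 0.07). *RNA45S5* met the criterion narrowly (adjusted P = 0.0457 in the one-sided tests of limma), and its 95% interval of -0.28 to 0.54 reached past the margin.

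Genes that respond to androgen and growth-inhibitory genes were examined in the same way. Of 20 androgen responsive genes, 18 were stable, beside 79.6% of all genes tested and 98.7% of those at 1 CPM or more. *KLK3* (prostate-specific antigen) was 219 ± 43.1 CPM in CSS and 232 ± 42.9 CPM with ligand (95% interval -0.11 to 0.28). All 14 growth-inhibitory genes with short-lived mRNA were stable. From 5 minutes to 1 hour, 8 of these 14 fell and 6 rose at an adjusted P value below 0.05 in edgeR. Among all genes, 5.92% fell and 7.2% rose. *CCNG2* was one that rose, by 1.23 on the log2 scale (adjusted P = 1.31e-17 in edgeR). *TXNIP*, the thioredoxin-interacting protein, was 464 ± 77.3 CPM in CSS (SD, n = 4) and 456 ± 58.8 CPM with ligand (SD, n = 8; 95% interval -0.15 to 0.11), and fell by 2.19 on the log2 scale from 5 minutes to 1 hour (adjusted P = 2.42e-23 in edgeR). *NUAK2*, an AMPK-related kinase, had the smallest P value of that list at 5 minutes (log2FC 0.17, SE 0.09, unadjusted P = 0.0816, adjusted P = 1 in edgeR) and fell by 2.39 (adjusted P = 2.35e-19 in edgeR).

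Stress genes, which a change of medium can itself induce, were examined too. Few mRNAs had moved by 5 minutes in any list, so their levels at this time do not show how the wells were handled. Of 16 heat shock and stress genes, 15 were stable and 0 reached an unadjusted P value below 0.05 in edgeR. Beside this, 79.6% of all genes tested and 98.7% of those at 1 CPM or more were stable. *DNAJB1*, a cochaperone, was 123 ± 4.66 CPM in CSS (SD, n = 4) and 132 ± 7.31 CPM with ligand (SD, n = 8; 95% interval -0.05 to 0.24). *HSPA1A*, the exception, had 42 to 94 counts per library, and its reads cannot be fully told apart from those of its near-identical copy *HSPA1B*, which was stable (-0.10 to 0.25). Of 8 nuclear-retained RNAs and RNA quality markers tested, 5 were stable. *MALAT1* (358 ± 51.5 and 326 ± 116 CPM) and *NEAT1* (301 ± 74.0 and 254 ± 82.9 CPM) were not shown to be stable, with intervals of -0.70 to 0.29 and -0.75 to 0.19.

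Outside these lists, the genes of at least 1 on the average log2 CPM scale with the smallest unadjusted P values, among those separated from CSS within both batches, had small estimates. Each of them had an adjusted P value of 1 in edgeR apart from *EGR1*. Higher with ligand, besides *EGR1* and *FOS*, were *PARD3*, a cell polarity gene (log2FC 0.19), *FNTB*, a subunit of the farnesyltransferase that modifies RAS (0.28), *C19orf52* (0.15), *AUNIP* (0.14), *SWSAP1* (0.14) and *BRE* (0.09). Lower were *DERL3*, of ER-associated degradation (-0.35), *ATMIN* (-0.09), *RNF146*, a ubiquitin ligase (-0.08), *ZKSCAN4* (-0.13), *RASSF4* (-0.20), *HRSP12* (-0.23), *HS2ST1*, of heparan sulfate synthesis (-0.09), and *RPL11*, a ribosomal protein (-0.17).

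Of the genes just listed besides *EGR1* and *FOS*, *FNTB* had the largest estimate upward and *DERL3* the largest downward. The levels of *FNTB* were 13.3, 13.4, 11.0, and 11.4 CPM in CSS. They were 17.3, 15.7, 14.4, and 12.9 CPM with EGF and 17.7, 18.0, 12.5, and 11.7 CPM with NRG-1. Ligand libraries lay above CSS libraries of their own batch, but those of batch 2 overlapped the CSS libraries of batch 1. *DERL3* was 1.54, 1.82, 1.95, and 1.89 CPM in CSS. It was 1.45, 1.3, 1.56, and 1.28 CPM with EGF and 1.44, 1.53, 1.37, and 1.37 CPM with NRG-1. The groups were apart in both batches, by 1.54 against 1.53 CPM in batch 1 and by 1.89 against 1.56 CPM in batch 2.

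Stability could be shown in proportion to the level of a gene. It was shown for 1024 of 4322 genes below 1 CPM (23.7%), 1409 of 1524 between 1 and 4 CPM (92.5%), 2545 of 2579 between 4 and 16 CPM (98.7%), 4844 of 4852 between 16 and 64 CPM (99.8%), and 3711 of 3718 at 64 CPM or more (99.8%). The median width of the 95% interval was 1.14 on the log2 scale below 1 CPM and 0.26 at 64 CPM or more. Of all genes tested, 350 had limma estimates beyond ±0.5, and the median absolute estimate was 0.05. In bulk RNA a level averages over all cells, so a change in few cells cannot be told apart from a small change in all of them. The measurements are relative to the total of each library, and a change shared by all mRNAs would not be seen.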

How the data were processed

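Polyadenylated, strand-specific RNA-Seq libraries of LNCaP cells were analysed. The authors trimmed reads with Trimmomatic 0.36 and used RSEM around STAR 2.7.0f in stranded mode; the submitters' processing notes name hg19. They deposited an expected count per gene and library, not normalized, and a TPM value per gene and library, normalized for transcript length and library total. Replicates were not pooled, and 0 columns of values were left unused. Groups, batches and replicates came from the labels. CPM were scaled with TMM factors.

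Expected counts were rounded, since 11.2% were not whole within 0.001. The filter asked for 5 counts or more in 3 libraries or more (16995 genes of 25498). All 32 libraries were fitted together in edgeR 4.0.16 (R 4.3.3) with TMM, 8 groups and batch, and the mean of the EGF and NRG-1 groups at 5 minutes was contrasted with CSS. The SE is the log2 fold change over the root of its F statistic. Stability was tested in limma 3.58.1. Its input was log2 CPM, to which a prior count of 2 had been added, and this shrinks estimates of genes with few counts. P values were adjusted by Benjamini-Hochberg over all genes tested. DESeq2 1.42.0, limma on TPM, other filters, each batch alone and leaving out each library were alternatives. The scripts were tested on simulated counts.

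Libraries with the same batch and replicate number deviated together from their group means (r = 0.39 to 0.90 in 12 of 12 pairs of libraries). This r includes the difference between the batches. The numbers paired the libraries only in the alternative with a replicate block, whereas the main fit held batch alone. With batch removed r was -0.06 to 0.84 and above 0.1 in 8 of 12, and CSS paired with neither ligand in batch 1 (-0.06 and -0.01). Since each group has 2 libraries per batch, both replicate numbers then give the same r. The 12 values are therefore not separate. Replicate libraries differed by more than sampling noise (chi-square per degree of freedom 6.5 to 198.9).

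Genes were named by rule: those past the adjusted threshold; the 8 higher and 8 lower genes with the smallest P values separated within both batches, at an average log2 CPM of at least 1; the immediate early genes and receptors; the member of each other list with the smallest P value; and the reference and stable genes at the extremes of interval width or level. Further members illustrate their lists. Some members are counted in their lists but are not reported here or drawn by name. The comparison, members and lists were chosen with earlier results of these data known. Promoters were matched by symbol to RefSeq sequences on GRCh38.p14.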

Additional observations from a re-analysis of the deposited data

Results flagged for a closer look

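In 231 groups of 4 libraries over the 78 genes named, 16 held a library that stood far from the other 3. The limit used would give about 12, or 1 in 20, for separate, normally distributed values of a single population. These groups span both batches and share their libraries, so that figure is not the chance share for these data. Of the 16, 9 were the EGF or NRG-1 library of batch 2 replicate 2. *EEF1A1*, a translation elongation factor, was 26700 CPM in that library of EGF and 24400 CPM in that of NRG-1, above the other libraries of their groups. *B2M* was 336 and 271 CPM in the same libraries, also above the others. *SRF* (50.1 CPM) and *ZFP36* (8.37 CPM) were lower, and *AUNIP* (4.24 CPM) higher, in the NRG-1 library than in its 3 companions. *MAFF* (1.07 CPM) and *MKL1* (17.4 CPM) were lower in the EGF library. *PLK2* was lowest in batch 2 replicate 1 of both EGF (37.0 CPM) and NRG-1 (34.3 CPM). *ERBB4* was 0.0479 CPM in NRG-1 batch 1 replicate 1, *EGR2* 0.0564 CPM in EGF batch 1 replicate 1, and *RNA45S5* 16700 CPM in EGF batch 1 replicate 2. In CSS, *AUNIP* was 3.16 CPM in batch 2 replicate 1 and *HS2ST1* 42.4 CPM in batch 2 replicate 2.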

How the results depend on the processing

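Which genes were called at 5 minutes depended on the fit. The count of DEGs with either ligand, with or without the fold limit, was 1 in the main analysis. It was 0 with only the 12 libraries in the fit (also with the ligands pooled as 1 group), in batch 2 alone, and with limma on log2 TPM at a pseudocount of 1. Without a filter on TPM it was 0 with the fold limit and 3 without it (*GOLGA6L7P*, *C18orf64* and *LINC01387*, chosen after their values were seen). With EGF it was 2 in DESeq2 and 0 with only the 12 libraries, in batch 2 alone and with either of these TPM fits, and with NRG-1 it was 1 in DESeq2. Leaving out each of the 12 libraries in turn gave 0 to 1 DEGs for either ligand, for EGF and for NRG-1, 0 between the ligands, and 13086 to 13465 stable genes. For NRG-1 the 1 came without EGF batch 2 replicate 1, and for EGF the 0 came without CSS batch 2 replicate 1. With a replicate block in place of the batch, *EGR1* had a log2 fold change of 2.19 (adjusted P = 0.0272 in edgeR) and no count of DEGs at 5 minutes changed, while 13657 genes were stable against 13533; the genes that were lower at 1 hour than at 5 minutes numbered 1601 with the block and 597 without a batch term, against 1006. Separation of all ligand libraries from CSS within both batches was counted for 54 genes higher by TPM, against 82; without regard to batch it was 16 higher and 14 lower, against 82 and 64. The counts of stable genes were 9340 with a margin of 0.25 and 16394 with a margin of 1. Of 2166 recomputed values of the named genes, 2106 were counted as unchanged. These stayed on the same side of the adjusted threshold and, for genes not past it, moved by less than their SE. Of the others, 49 moved by more, 11 (all *EGR1*) lost the threshold, and 0 reversed a call. The cause of these shifts was not tested. Leaving out batch 2 replicate 2, and the robust prior in edgeR, were chosen after seeing the data.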

Other observations

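Of the 16 genes in which all 8 ligand libraries lay above all 4 CSS libraries, 11 averaged at least 1 CPM over the 12 libraries. Besides *EGR1*, *FOS* and *AUNIP* they included *RUNX1*, a transcription factor (1.06 CPM in CSS and 1.27 CPM with ligand), *STK24*, a kinase (58.6 and 62.2 CPM), and *MAEA*, a ubiquitin ligase subunit (76.1 and 79.6 CPM). Of the 14 in which they all lay below, 7 averaged at least 1 CPM, among them *DGKA*, a diacylglycerol kinase (2.75 and 2.41 CPM), and *RNF146* (39.4 and 37.2 CPM). *RUNX1*, *STK24*, *MAEA* and *DGKA* were chosen after their values were seen, and 0 of these 4 passed the adjusted threshold in edgeR.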
